A study of Mus musculus with 9 samples.

Results

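Expression of 10 genes of the canonical Wnt pathway was followed in mouse intestinal organoids and tumoroids. They are Axin2, Nkd1, Apcdd1, Notum and Wif1, which encode inhibitors of the pathway, and Sp5, Lef1, Tcf7, Sox9 and Myc, which encode transcription factors. The genes were chosen by symbol and are 10 of the 50600 genes in the deposited tables. All 10 were among the 16208 genes tested, those reaching a TPM of 1 in any library. TPM is a level per gene length, scaled to the same sum in every library.

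RNA was sequenced from 9 libraries in 3 groups of 3. Wildtype (WT) organoids of the small intestine of C57BL/6 mice were kept for 24 hr in organoid medium mixed with conditioned medium (cM), taken from cultures of either WT organoids (WT-cM) or tumoroids (T-cM). Tumoroids, organoids grown from intestinal tumours of Apc1638N/+ mice of a strain given as MIX, were left untreated. The study's methods, in contrast, give a mixed background for all of its mice. The organoids came from 3 different mice, and so did the tumoroids, which per the study's text were the source of the T-cM. The title and the treatment field of each organoid library name opposite media. Libraries are named here by their titles, as WT-cM-titled or T-cM-titled organoids, and a direction between these groups reverses if the treatment field is the right one. The comparison of tumoroids with the mean of both organoid groups does not depend on this label.

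In the study's methods, WT organoids grew in medium with EGF, Noggin and R-spondin1 and tumoroids in medium without R-spondin1, while the deposited growth protocol lists R-spondin1 without setting the tumoroids apart. R-spondin1 strengthens Wnt signals at the cell surface. Genotype, strain, tissue, R-spondin1 and conditioned medium therefore cannot be told apart between tumoroids and organoids. Bulk RNA also cannot tell fewer cells of a type from less RNA per cell.

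Counted reads per library ranged from 16541635 to 25170966. A count of 3 reads, taken as the least that shows expression, was worth 0.103 to 0.204 CPM (counts scaled to library size, normalised by TMM). This floor covers counting error only. The 8 epithelial markers summed to between 9450 and 11800 CPM in the organoids and between 6530 and 7400 CPM in the tumoroids, and Col3a1 and Lum, which mark fibroblasts, were at 0 in all 9 libraries. The 8 fibroblast markers summed to 0.543 to 1.28 CPM in organoids and 0.499 to 2.47 CPM in tumoroids, the 3 smooth muscle markers to at most 0.899 and to 1.93 to 46.1 CPM, the 6 immune markers to 1.32 to 2.88 and 4.99 to 21 CPM, and the 4 endothelial markers to 0.475 to 1.15 and 1.15 to 4.22 CPM. In tumoroids nearly all of the smooth muscle and immune sums came from Acta2 and Cd68, which were highest in tumoroid replicate 3 (46.0 and 20.5 CPM), while the T cell marker Cd3e was at 0 in every library. The 5 Paneth cell markers summed to 2970 to 4250 CPM in organoids and to 153 to 1140 CPM in tumoroids, where Lyz1, Defa17 and Defa24 were lower, Mmp7 was higher by 1.98 on the log2 scale (adjusted p = 0.0022 in edgeR) and Ang4 did not pass the test. The part of these cells in the results below was not tested.

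Wnt ligands act by stopping the destruction complex, in which Apc and the axins hold β-catenin for phosphorylation and degradation. Stabilised β-catenin enters the nucleus and binds TCF and LEF factors, and the complex turns on target genes, several of which encode inhibitors that feed back on the pathway. In the intestine the pathway maintains crypt stem cells, and loss of Apc function is the usual first step of intestinal tumours.

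Promoters of the members were read from RefSeq (build GRCm38.p6), as 250 bases before to 50 bases after each start. The table held 10 promoters of 6 members, those of Sp5, Lef1, Nkd1, Wif1, Tcf7 and Axin2. They were searched on both strands for CTTTGAT, the core of the site that TCF and LEF factors bind. It was present in 1 of the 10, that of Sp5, and in 1225 of all 32851 promoters (3.73%). A match is a description of these letters only. The promoters of Sp5 and Axin2 are shown because Sp5 was the member that differed between the organoid groups and Axin2 is the best known negative feedback gene of the pathway. Both are on the + strand, at chr2:70474673-70474972 and chr11:108920099-108920398. Capitals mark the motif, which begins 104 bases upstream of the start of Sp5 on the strand of the gene.
Sp5: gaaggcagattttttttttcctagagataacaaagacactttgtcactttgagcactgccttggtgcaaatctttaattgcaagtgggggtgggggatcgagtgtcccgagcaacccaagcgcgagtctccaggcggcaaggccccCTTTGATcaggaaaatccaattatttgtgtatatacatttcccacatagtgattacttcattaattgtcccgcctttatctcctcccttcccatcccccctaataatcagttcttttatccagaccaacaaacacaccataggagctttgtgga
Axin2: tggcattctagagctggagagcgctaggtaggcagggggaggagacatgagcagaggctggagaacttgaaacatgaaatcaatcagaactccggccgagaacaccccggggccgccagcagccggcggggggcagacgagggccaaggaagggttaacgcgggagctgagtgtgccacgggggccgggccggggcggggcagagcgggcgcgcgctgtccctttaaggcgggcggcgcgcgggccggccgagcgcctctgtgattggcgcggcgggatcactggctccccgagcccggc

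Levels of the members were first ranked per gene length within the organoids. Mean TPM over the 6 organoid libraries was 44.8 ± 17.6 (SD, n = 6) for Myc, 17.2 ± 7.23 for Axin2, 13.8 ± 2.46 for Sox9, 7.38 ± 2.70 for Tcf7 and 5.33 ± 2.42 for Sp5. Each neighbouring pair in this order overlapped in the range over libraries, although Myc lay above Axin2 and Sox9 above Tcf7 within every organoid library. Apcdd1 followed at 0.742 ± 0.211 TPM, with a highest library (0.99) below the lowest of Sp5 (3.12). Notum, Nkd1, Wif1 and Lef1 had means of 0.198, 0.0883, 0.075 and 0.00833 TPM. These 4 genes lay at or near the floor of 3 reads in nearly every organoid library.

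In tumoroids the order changed. Mean TPM was 330.0 ± 66.6 (SD, n = 3) for Myc, above Axin2 (199 ± 36.9) without overlap of libraries. Notum, at 113 ± 39.3 TPM, came next, and its range overlapped with Axin2 above it and with Sox9 below it (93.8 ± 28.1). Within every tumoroid library Axin2 lay above Notum. Sp5 (55.8 ± 15.2) and Tcf7 (36.6 ± 5.61) overlapped with each other, and the highest Sp5 library lay just above the lowest of Sox9. Nkd1 (17.2 ± 7.91 TPM) was below Tcf7 in every library, and Wif1 (6.83 ± 3.88), Lef1 (5.24 ± 5.07) and Apcdd1 (4.25 ± 0.929) overlapped with each other. Among the mean TPM of all tested genes, Notum moved from percentile 9.53 in organoids to 90.5 in tumoroids, and Nkd1 from 6.45 to 52.3. Apcdd1 moved the least among the low members, from 20.6 to 30.4.

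**Figure D1:**
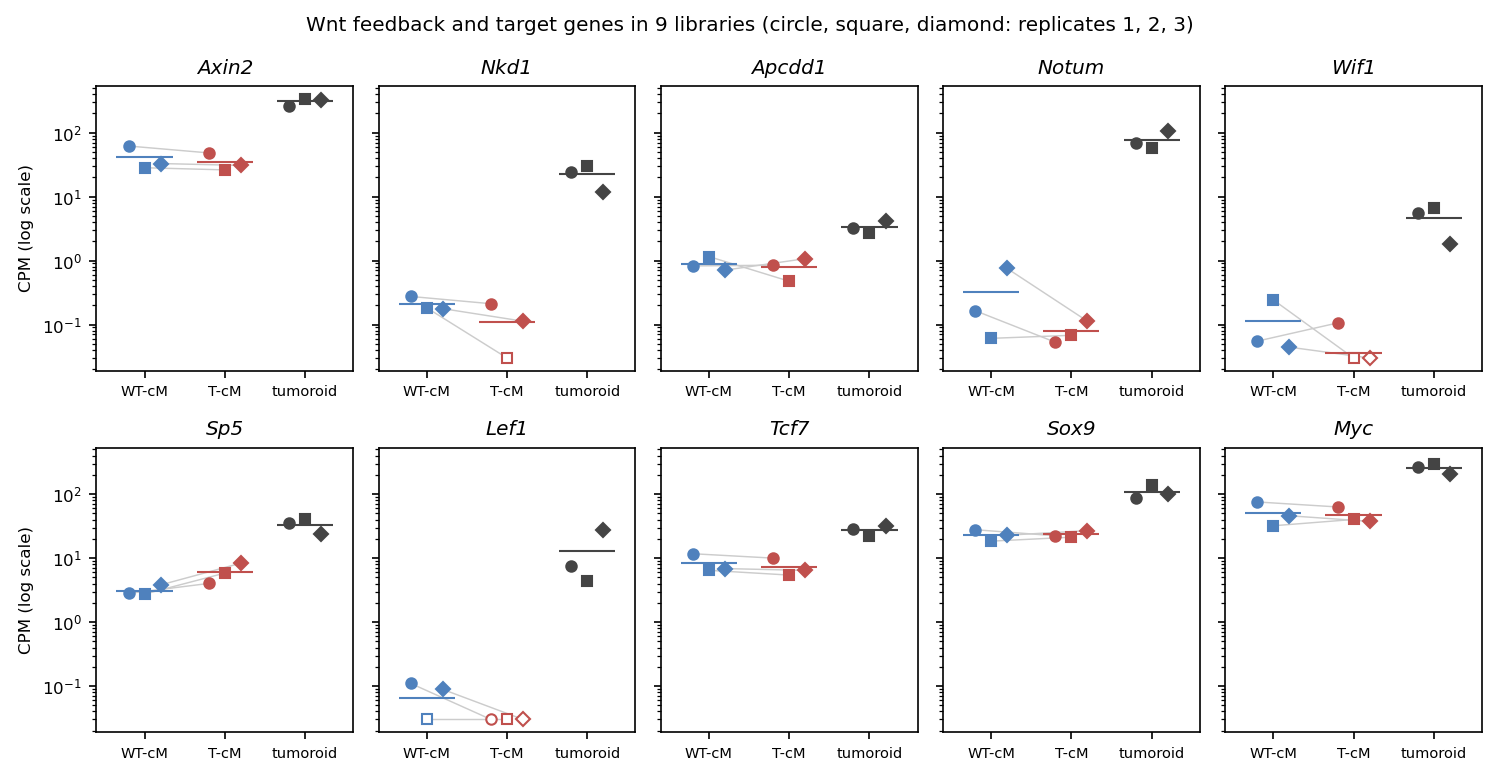
CPM of each member in each library (log scale) for WT-cM-titled organoids, T-cM-titled organoids and tumoroids; horizontal lines are group means, grey lines join organoid libraries of the same replicate number, and open symbols at 0.03 CPM stand for 0 reads. The 3 tumoroids lie above all 6 organoid libraries for each of the 10 genes, and Sp5 is the only gene whose T-cM-titled libraries all lie above all WT-cM-titled ones.

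Whether conditioned medium of tumoroids changes expression of Wnt target genes in normal organoids is asked by the organoid comparison. Of the 10 members, 1 (Sp5) was higher in T-cM-titled organoids and 0 were lower at an adjusted p under 0.05 (edgeR quasi-likelihood test with replicate number as a block, Benjamini-Hochberg over all 16208 tested genes). Of all tested genes 5.03% were higher and 5.05% lower by the same rule, or 10.1% in either direction. None of the members was also changed by more than 1 on the log2 scale, against 1.1% of all tested genes. The median log2 fold change of the 10 members was -0.18, beside 0 over all tested genes, and counts 4 members (Notum, Nkd1, Wif1 and Lef1) with too few reads for their own values to be a measure of size.

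Sp5 (chr2, 70474923 to 70477729, + strand), a zinc finger factor of the Sp family that is a direct Wnt target, had 76, 86 and 148 reads in replicates 1 to 3 of T-cM-titled organoids. It had 51, 45 and 86 reads in the same replicates of WT-cM-titled organoids. Expressed as CPM these were 4.02, 5.84 and 8.34 against 2.80, 2.74 and 3.81. The groups did not overlap, and the T-cM-titled library was higher in 3 of 3 replicate pairs, by 0.52, 1.09 and 1.13 on the log2 scale. Of all tested genes 5.12% were separated in this direction and 5.28% in the other. The difference was 0.95 ± 0.19 on the log2 scale (SE, adjusted p = 0.001 in edgeR, 95% interval 0.58 to 1.32). The call was lost without replicate 2 (0.86, adjusted p = 0.361), without replicate 3 (0.81, adjusted p = 0.0944), without the block (0.97, adjusted p = 0.823) and with the deposited TPM (0.78, adjusted p = 0.276). The promoter with a CTTTGAT match shown above belongs to this gene, and a link between the match and this difference was not tested.

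Axin2 (chr11, 108920349 to 108950783, + strand), a scaffold of the destruction complex, had 912, 386 and 546 reads in T-cM-titled organoids and 1125, 465 and 743 in WT-cM-titled organoids. It was lower in the T-cM-titled library of 3 of 3 pairs, but the groups overlapped, and the log2 fold change of -0.18 ± 0.10 (SE) did not pass the test in edgeR (adjusted p = 0.29, 95% interval -0.38 to 0.01). Tcf7 (chr11, 52252371 to 52283014, - strand), one of the 4 TCF and LEF factors, was also lower in 3 of 3 pairs and overlapped. Its counts were 189, 80 and 114 against 213, 106 and 155, for a log2 fold change of -0.18 ± 0.15 that did not pass the test (adjusted p = 0.54, 95% interval -0.46 to 0.11).

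Sox9 and Myc, transcription factors of crypt progenitors and of cell growth, overlapped between the organoid groups. Sox9 (chr11, 112782224 to 112787760, + strand) had 22.4, 21.2 and 26.9 CPM in T-cM-titled organoids and 27.8, 18.4 and 22.8 CPM in WT-cM-titled organoids. Its log2 fold change was 0.05 with a 95% interval of -0.18 to 0.28. Myc (chr15, 61985391 to 61990374, + strand) had 63.1, 40.2 and 37.5 CPM against 75.5, 32.0 and 45.9 CPM, for a log2 fold change of -0.08 with a 95% interval of -0.28 to 0.13.

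The inhibitors other than Axin2 had few reads in organoids, and none of them passed the test. Apcdd1 (chr18, 62922231 to 62961179, + strand), a membrane protein that binds Wnt and its receptors, had 16, 7 and 19 reads in T-cM-titled and 15, 19 and 16 reads in WT-cM-titled organoids, and its log2 fold change of -0.11 had a 95% interval of -0.91 to 0.69. Notum (chr11, 120653788 to 120661175, - strand), a secreted enzyme that removes the lipid that Wnt ligands need, had 1, 1 and 2 reads against 3, 1 and 17. Replicate 3 of WT-cM-titled organoids therefore held 17 of the 21 reads of its group. The log2 fold change of -1.94 ± 0.90 did not pass the test in edgeR (adjusted p = 0.2, unadjusted p = 0.04), and was -0.88 without replicate 3. Since every T-cM-titled library lay under the floor of 3 reads, this value depends on the fit and is no measure of size.

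Nkd1 (chr8, 88521354 to 88594884, + strand), an intracellular protein that binds Dishevelled, had 4, 0 and 2 reads against 5, 3 and 4. Wif1 (chr10, 121033960 to 121100650, + strand), a secreted protein that binds Wnt ligands, had 2, 0 and 0 against 1, 4 and 1. Lef1 (chr3, 131110471 to 131224356, + strand), another TCF and LEF factor, had 0 reads in all T-cM-titled organoids and 2, 0 and 2 in WT-cM-titled organoids. No fold change is given for these 3 genes in organoids.

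**Figure D2:**
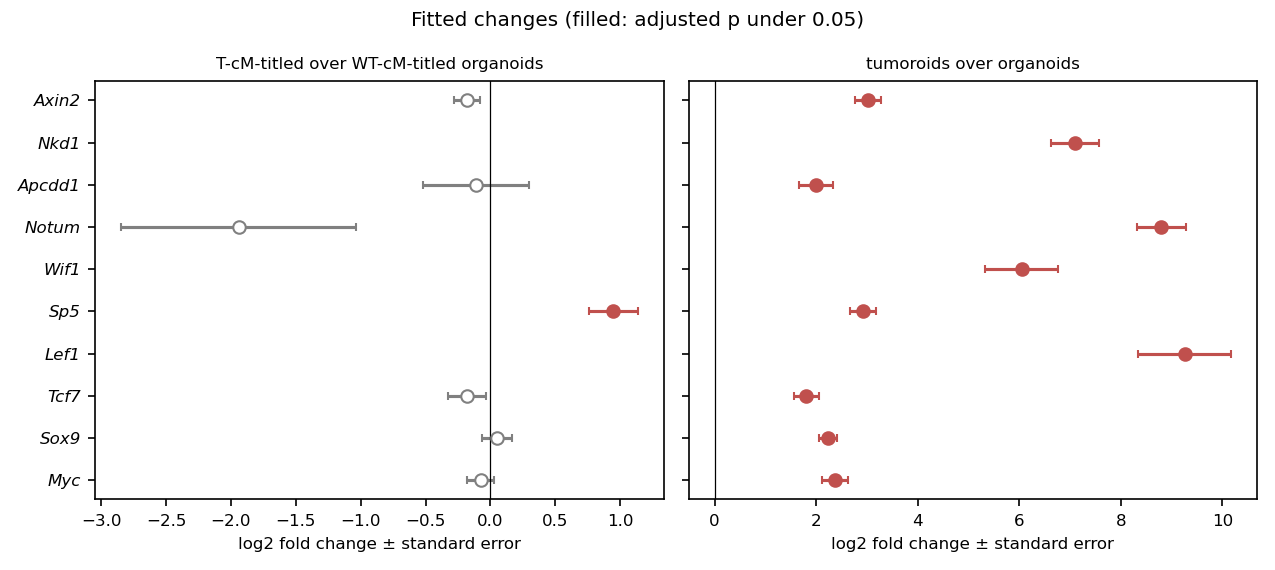
Log2 fold change with its standard error for each member, for T-cM-titled over WT-cM-titled organoids (left) and for tumoroids over the mean of both organoid groups (right); the scales of the panels differ. Filled symbols have an adjusted p under 0.05, and 3 members (Nkd1, Wif1 and Lef1) with fewer than 10 reads in every organoid library are left out on the left. Sp5 is filled on both sides and the other members only on the right, where values run from 1.81 (Tcf7) to 9.26 (Lef1).

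Organoid libraries of the same replicate number moved together for part of the members. Replicate 1 held the highest CPM of both organoid groups for Axin2, Tcf7 and Myc, as it did for 29.6% of the 12678 tested genes with more than 3 counts in all 6 organoid libraries. Replicate 3 was the highest in both groups for Sp5. The highest replicate was the same in both groups for 63.8% of these genes. For Axin2 the spread between replicates, from 28.3 to 61.8 CPM in WT-cM-titled organoids, was larger than the difference within any pair.

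Tumoroids were compared with organoids to ask how the members are expressed in tumour epithelium. All 10 members were higher in tumoroids at an adjusted p under 0.05 and by more than 1 on the log2 scale (edgeR, 9 libraries, Benjamini-Hochberg over all tested genes), and 21% of all tested genes were called in that direction (33.1% in either). In each of the 10 the lowest tumoroid library lay above the highest of the 6 organoid libraries, as it did for 25.6% of all tested genes, while for 20.2% all tumoroids lay below. The median log2 fold change of the members was 2.97, beside 0.16 over all tested genes. Of the 10, 5 (Nkd1, Notum, Wif1, Apcdd1 and Lef1) reached the TPM of 1 needed for testing only in tumoroids and so had to be higher there, and these counts and the median are a description. So are the adjusted p-values of these 5 genes given below. The other 5, Axin2, Sp5, Tcf7, Sox9 and Myc, reached it in organoids too.

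Among the intracellular inhibitors, Axin2 had 5834, 9051 and 9414 reads in tumoroid replicates 1 to 3, or 264, 337 and 323 CPM. In organoids its highest library had 61.8 CPM. Its log2 fold change was 3.02 ± 0.26 (SE, adjusted p = 1.6e-05 in edgeR), and its highest tumoroid library was 1.27 times the lowest. Nkd1 went from between 0 and 5 reads in each organoid library to 536, 822 and 341 reads in the tumoroids, or 24.3, 30.6 and 11.7 CPM. Pooled over libraries this was 1699 reads against 18, a ratio per normalised library size of 131 with a 95% counting interval (exact) of 82.8 to 222. By the test it was higher by 7.10 ± 0.47 on the log2 scale (adjusted p = 4.3e-06 in edgeR).

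The secreted inhibitor Notum had 1500, 1522 and 3093 reads in tumoroids, or 68.0, 56.6 and 106 CPM, and at most 17 reads in an organoid library. All 3 tumoroids lay far above the organoids, with 6115 reads against 25 in all, a ratio of 340 (95% counting interval 230 to 526). The log2 fold change was 8.79 ± 0.48 (adjusted p = 1.6e-06 in edgeR). It was 9.58 without replicate 3 of WT-cM-titled organoids, which held most of the organoid reads, 7.75 against WT-cM-titled organoids alone and 9.84 against T-cM-titled organoids alone. An antisense gene, Notumos, overlaps Notum and had at most 170 reads in a tumoroid. The library kit keeps strand but the strand setting of the counting was not given in the sources used here, so reads of the 2 genes may not be fully separated.

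Wif1 rose from at most 4 reads in an organoid library to 124, 180 and 52 in tumoroids, or 5.62, 6.69 and 1.79 CPM. Replicate 3 was the lowest of the tumoroids for both Wif1 and Nkd1. The pooled ratio of Wif1 was 61.9 (95% counting interval 31.1 to 144.5) and its log2 fold change 6.05 ± 0.72 (adjusted p = 0.0001 in edgeR), with 7.49 without replicate 1 of T-cM-titled organoids and 5.36 against WT-cM-titled organoids alone. Apcdd1, the membrane inhibitor, had 72, 73 and 121 reads in tumoroids against 7 to 19 in organoids, for a log2 fold change of 1.99 ± 0.34 (adjusted p = 0.00089).

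Of the transcription factors, Lef1 had the largest fitted change in counts, while with the deposited TPM, on the log2(TPM + 1) scale, its change of 2.33 lay below those of Sp5 (3.21), Myc (2.91) and Sox9 (2.65). It had 4 reads in all 6 organoid libraries together and 165, 118 and 791 reads in tumoroids, or 7.48, 4.39 and 27.2 CPM. Replicate 3 stood above the other 2 tumoroids, at 6.19 times the lowest, and 5.72% of 13725 genes with more than 3 counts in all tumoroids had a larger ratio (median 1.58). The pooled ratio was 373.5, with a wide 95% counting interval of 145.5 to 1373. The log2 fold change was 9.26 ± 0.92 (adjusted p = 0.00011 in edgeR), 8.07 without that tumoroid and 7.44 against WT-cM-titled organoids alone, and its size depends on the fit, since T-cM-titled organoids had 0 reads. Acta2 and Cd68 were highest in the same tumoroid, and so were Cdh5, an endothelial marker, with 54 reads against 1 and 1, and Pdgfrb, a marker of fibroblasts and mural cells, with 52 reads against 4 and 3. Col1a1 and Pdgfra also were, with 12 and 7 reads. Other markers of the same lists were not. Ptprc and Itgam were highest in replicate 2 (19 and 11 reads), and Myh11 and Des in replicate 1 (4 and 3 reads). Vwf was highest in replicate 1 by CPM (2.72 against 0.93 and 2.20). Pecam1 had 5 reads in each tumoroid, and Kdr and Lum had 0. The part of non-epithelial cells in the level of Lef1 was not tested.

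Sp5 had 776, 1082 and 701 reads in tumoroids, or 35.2, 40.2 and 24.1 CPM, and its highest organoid library, replicate 3 of the T-cM-titled group, had 8.34 CPM. The log2 fold change was 2.93 ± 0.25 (adjusted p = 1.6e-05 in edgeR). Sox9 had 88.1, 138 and 100.4 CPM in tumoroids, against at most 27.8 in organoids, and rose by 2.23 ± 0.17 on the log2 scale (adjusted p = 9.2e-06). Myc had 266, 292 and 204 CPM, against at most 75.5, and rose by 2.37 ± 0.26 (adjusted p = 6.4e-05). These 3 factors kept a spread of at most 1.67 times between tumoroids.

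Tcf7 went from between 5.43 and 11.7 CPM in organoids to 28.1, 22.4 and 31.4 CPM in tumoroids. Its log2 fold change was 1.81 ± 0.25 (adjusted p = 0.00029 in edgeR), within the errors of that of Apcdd1, and with the deposited TPM Apcdd1 (1.59) was below Tcf7 (2.21). Its lowest tumoroid was 1.91 times its highest organoid library.

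The 4 genes of the TCF and LEF family were then set beside each other per gene length. Their summed TPM was 15 ± 1.90 in organoids (SD, n = 6) and 49.9 ± 11.0 in tumoroids (n = 3). Tcf7 made up 48.5% of the sum in organoids (37.4% to 66.7% over libraries) and 74.0% in tumoroids (68.3% to 80.0%). Tcf7l2, often the main family member of intestinal epithelium, made up 51.3% (33.2% to 62.6%) and 12% (8.44% to 17.9%). Neither share overlapped between tumoroids and organoids. The share of Lef1 went from at most 0.17% to between 4.31% and 17.7%, and that of Tcf7l1, a family member known mainly as a repressor, from at most 0.54% to between 3.87% and 5.56%. By counts Tcf7l2 fell by 0.95 ± 0.28 on the log2 scale (adjusted p = 0.017 in edgeR) and Tcf7l1 had 207 reads against 4. The call of Tcf7l2 was lost with the deposited TPM and without tumoroid replicate 1.

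**Figure D3:**
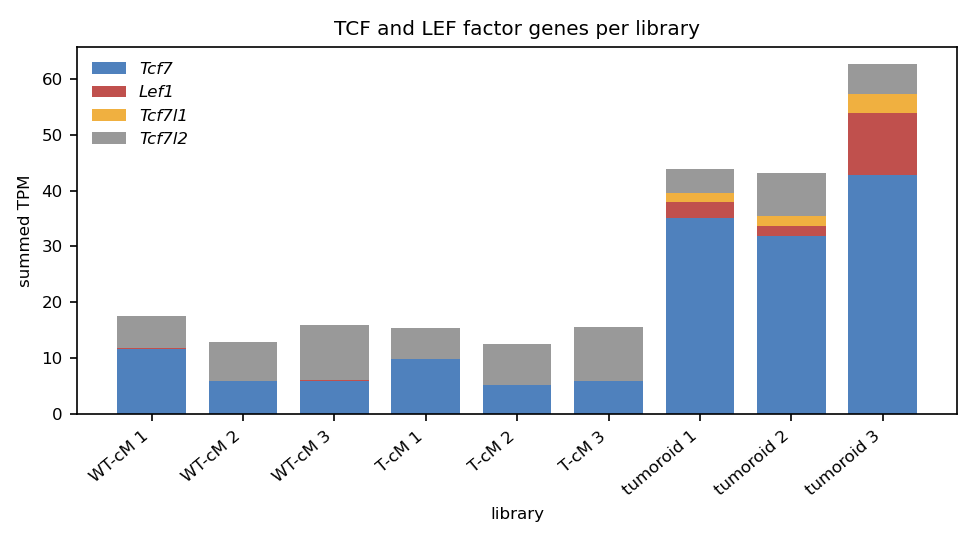
Summed TPM of Tcf7, Lef1, Tcf7l1 and Tcf7l2 in each of the 9 libraries (stacked bars). The sum is higher in the 3 tumoroids than in the 6 organoid libraries, Tcf7 fills most of it there, and Lef1 reaches 17.7% of it in tumoroid 3.

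Within the MYC family, Myc made up 68.6% of the summed TPM in organoids and 84.6% in tumoroids, without overlap between libraries of the 2 kinds (63.0% to 73.9% and 75.2% to 90.8%). Mycn rose in tumoroids by 1.70 ± 0.37 on the log2 scale (adjusted p = 0.0035 in edgeR). Mycl, at 0.83 ± 0.31 (adjusted p = 0.049), passed the test narrowly and lost the call under 10 of 19 alternatives.

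The rest of the pathway was described by lists chosen by function. By adjusted p alone, 29.6% of all tested genes were higher in tumoroids and 20.8% lower (50.4% in either direction). Of 12 tested genes of the destruction complex and its upstream effectors, 3 rose in tumoroids and 1 fell, with a median log2 fold change of 0.07, below the median of all tested genes. Btrc, which recognises phosphorylated β-catenin for degradation, rose by 0.97 ± 0.14 (adjusted p = 0.0004 in edgeR), Dvl2, a Dishevelled, by 0.83 ± 0.15 and Amer1, a membrane partner of Apc, by 0.75 ± 0.21. Gsk3a, a kinase of the complex, fell by 0.67 ± 0.10 (adjusted p = 0.00046). The calls of Gsk3a (with the deposited TPM) and Amer1 (without tumoroid replicate 3) were lost under 1 alternative each.

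Apc, the gene mutated in the tumoroids, had 79.4, 105 and 124 CPM in tumoroids and between 103 and 171 CPM in organoids. The libraries overlapped and the log2 fold change of -0.42 ± 0.17 did not pass the test (adjusted p = 0.07 in edgeR). A count over the whole gene does not separate the alleles and so does not check the genotype. Ctnnb1, which encodes β-catenin, had 1111 ± 228 CPM in tumoroids (SD, n = 3) and 998 ± 45.6 CPM in organoids (n = 6), with a log2 fold change of 0.16 (adjusted p = 0.43 in edgeR), and lies outside the naming rule. Both genes depended on the scale. By TPM Ctnnb1 was higher in tumoroids without overlap, at 671, 654 and 937 against 420 to 503 in organoids. Mean TPM of Apc was 23.25 in tumoroids and 21.62 in organoids. With the deposited TPM the median log2 fold change of all tested genes was 0.52.

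Of 11 tested TCF partners and coregulators, 5 rose and 5 fell, with a median of 0.57. Besides Tcf7l1, which reached the TPM needed for testing only in tumoroids, those that rose with the smallest p were Tle3, a Groucho corepressor (2.08 ± 0.24), and the β-catenin partners Bcl9l (1.41 ± 0.18) and Bcl9 (1.07 ± 0.22). Besides Tcf7l2, those that fell were Ctnnbip1, which keeps β-catenin from TCF factors (by 1.55 ± 0.23), the Groucho genes Tle4 (by 1.08 ± 0.24) and Tle1 (by 1.00 ± 0.13), and the short Groucho relative Aes (by 0.75 ± 0.17). Adjusted p-values of these 7 genes in edgeR ran from 8.6e-05 (Tle3) to 0.0047 (Tle4). The calls of Tle4 and Aes were lost with the deposited TPM.

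Of 20 other Wnt inhibitors 11 were tested, and 7 rose and 1 fell, with a median of 2.59. Of the 11, 5 reached the TPM needed for testing only in tumoroids, among them 4 of the 7 that rose, and 1 (Dkk4) only in organoids, so that the direction of these 6 was fixed by the filter. Of the 5 that reached it in both, 3 rose and 0 fell. Rnf43 and Znrf3, ubiquitin ligases that remove Wnt receptors from the membrane, rose by 2.59 ± 0.15 (adjusted p = 2e-06 in edgeR) and 1.52 ± 0.24. Rnf43 went from 54.6 ± 4.90 CPM (SD, n = 6) to 328 ± 71.5 CPM (n = 3). Dkk2, a secreted inhibitor of the Wnt coreceptor, had 691 reads in tumoroids against 9 in organoids, and Dact1, a Dishevelled partner, 1209 against 7. Both were uneven between tumoroids: Dkk2 ranged from 3.17 to 15.3 CPM and Dact1 from 1.31 to 38.2 CPM, and their log2 fold changes of 8.05 and 7.76 became 7.23 without replicate 3 and 5.76 without replicate 2. Dkk4, another inhibitor of the coreceptor, had 51 reads over the organoids and 0 in tumoroids.

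Of 16 tested other Wnt target genes, 13 rose and 0 fell, with a median of 2.43. Of the 12 that reached the TPM needed for testing in organoids 9 rose, and the other 4, which include Lgr5, Prox1 and Tnfrsf19, reached it only in tumoroids. The direction of these 4 was fixed by the filter, and their adjusted p-values are a description. Lgr5, the R-spondin receptor of crypt stem cells, went from 0.824 ± 0.574 CPM in organoids to 71.6 ± 31.8 CPM in tumoroids, a log2 fold change of 6.47 ± 0.48 (adjusted p = 6.8e-06 in edgeR). Prox1, a homeobox factor, rose by 6.72 ± 0.32, Tnfrsf19, a stem cell receptor, by 6.98 ± 0.51, and Ccnd1, which encodes cyclin D1, by 3.57 ± 0.25. Of 14 MYC target genes 4 rose and 0 fell, with a median of 0.62, a share of calls close to the 29.6% of all tested genes that were higher. Npm1, Nop56, Mybbp1a and Wdr43, all of ribosome production, rose by between 0.72 and 1.03. Adjusted p-values of these 4 lay between 0.019 and 0.042, and Nop56, Mybbp1a and Wdr43 each lost the call under 8 of 19 alternatives and Npm1 under 2.

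In the organoid comparison, where 10.1% of all tested genes passed the test, 2 of 12 genes of the destruction complex list did. Apc (0.28 ± 0.09, adjusted p = 0.042 in edgeR) and Dvl2 (0.43 ± 0.12, adjusted p = 0.024) were higher in T-cM-titled organoids. None of the 11 TCF partners or the 11 other inhibitors passed the test. Of the 16 other Wnt targets 4 passed. Fosl1, an AP-1 factor, (1.11 ± 0.28, adjusted p = 0.0097) and Plaur, the urokinase receptor, (0.76 ± 0.11, adjusted p = 1.5e-05) were higher. The stem cell genes Ascl2 (-0.66 ± 0.19, adjusted p = 0.019) and Smoc2 (-0.61 ± 0.09, adjusted p = 4.5e-05) were lower, in 3 of 3 pairs each. Of the 5 Paneth cell markers, Ang4 (-0.49 ± 0.08, adjusted p = 0.00014), Defa17 (-0.37 ± 0.08, adjusted p = 0.0026) and Mmp7 (-0.35 ± 0.09, adjusted p = 0.015) were lower in the same comparison, and the part of a shift in crypt cells was not tested. Lgr5 was at -0.89 ± 0.41 and did not pass the test (adjusted p = 0.19). Of the 14 MYC targets, Odc1, the first enzyme of polyamine synthesis, was lower (-0.27 ± 0.08, adjusted p = 0.021). All 7 calls were lost without the block, with the deposited TPM and without replicate 2. Of 11 alternatives, 8 ended the call of Apc, 7 those of Dvl2 and Ascl2, 6 that of Fosl1, 5 that of Odc1 and 3 those of Plaur and Smoc2. In the 3 shared settings only 0, 0 and 1 of all tested genes passed, and the 7 genes kept their direction under all 11 alternatives.

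**Figure D4:**
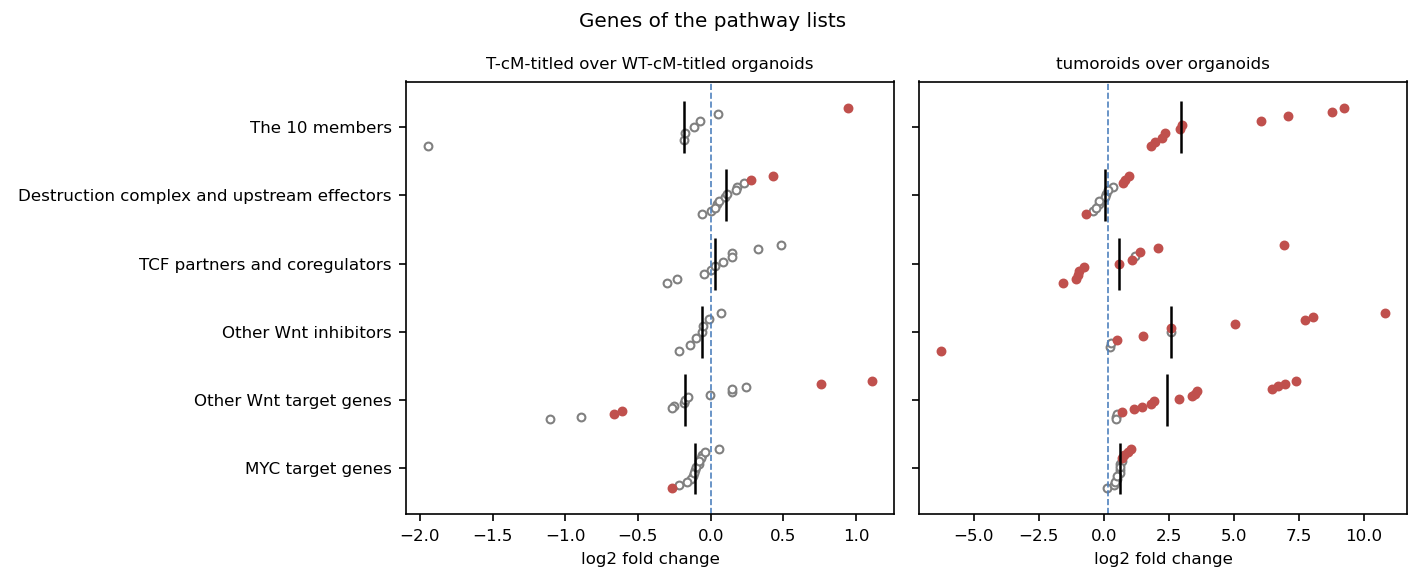
Log2 fold changes of the 10 members and of the tested genes of 5 pathway lists, between the organoid groups (left) and between tumoroids and organoids (right). Each point is a gene, filled where the adjusted p is under 0.05; black lines are list medians over all tested genes of the list, dashed lines the median of all tested genes, and 9 genes with fewer than 10 reads in every organoid library are left out on the left. On the right the members (median 2.97) and the other Wnt targets (2.43) lie well to the right of the dashed line at 0.16, and the destruction complex (0.07) lies around it.

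Likeness between genes was measured as the root mean square difference of log2 CPM over the 9 libraries, each gene centred on its organoid mean. The closest pair of members was Sox9 and Myc, at 0.346, and Notum and Tcf7 were the farthest apart, at 3.81. The 3 tested genes nearest to Axin2 were Zc3hav1l (0.151), Inf2 (0.211) and B9d1 (0.238). For Nkd1 they were Prkch (0.525), Entpd3 (0.592) and Tnfrsf19 (0.608), for Notum Rassf9 (0.649), Prom2 (0.74) and Tmprss13 (0.743), for Wif1 Slc12a4 (0.51), Tlr6 (0.516) and Atg9b (0.591), and for Apcdd1 Kiz (0.246), Gm13496 (0.249) and Chrm1 (0.258). The neighbours of the transcription factors were Rnf39 (0.17), Lrrc27 (0.276) and Rasl11b (0.322) for Sp5, Tmem173 (0.257), Pcdhb9 (0.353) and Foxc1 (0.382) for Lef1, and Fbxo21 (0.096), Iqcb1 (0.143) and Acer2 (0.159) for Tcf7. Sox9 had Usp11 (0.142), Trim3 (0.171) and Zfp420 (0.19), and Myc had Gemin8 (0.155), Efna4 (0.199) and Bmyc (0.216). Of these genes, Tnfrsf19 is in the list of other Wnt targets. None of the 3 nearest genes of a member was another member.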

How the data were processed

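Paired-end reads were aligned by the authors with STAR (genome mm10), who deposited raw counts per gene of Gencode M13. The authors also deposited TPM, a level per gene length with the same sum in every library. The counting tool, its strand setting and the gene lengths were not given in the sources used here. Groups and replicate numbers were taken from the titles.

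Raw counts of 9 libraries (16541635 to 25170966 reads) were normalised by TMM and fitted with the quasi-likelihood test of edgeR 4.0.16 (older form) in R 4.3.3, with Benjamini-Hochberg adjustment over genes reaching a TPM of 1 in any library. As in the study's models, which were fitted with limma voom, the organoid fit took the 6 organoid libraries and blocked on replicate number, and the tumoroid fit all 9 libraries without one. Tumoroids were set against the mean of both organoid groups, while the study's pathway analysis took organoids in WT-cM as the reference. Organoid libraries sharing a number deviated together (r = 0.546, 0.338 and 0.547). Log2 CPM profiles used a prior count of 2. The p-values of the tumoroid fit are set against the spread between libraries of a group. Those of the organoid fit are set against the spread left after the block on replicate number. Intervals of pooled ratios are exact and cover counting error only. Gene positions are from Gencode M21 on the same build.

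The members and gene lists were chosen with earlier results of these data known. Named are all members, Apc, up to 4 genes per list and direction with the smallest p among those past the test, and the 3 genes nearest to each member; genes named outside this rule (Ctnnb1, Notumos, Lgr5 in the organoid comparison and single cell type markers, such as Cdh5 and Pdgfrb, which are high in tumoroid replicate 3) were chosen after their values were seen. Alternatives were limma 3.58.1 (voom), DESeq2 1.42.0, the newer quasi-likelihood form, RLE factors, no TPM filter or filterByExpr, the block left out or added, the deposited TPM (log2 with a pseudocount of 1), each replicate left out and each organoid group alone as the control. The methods were tested on simulated data, where the organoid fit made more false calls than its threshold allows and found a minority of planted changes of 1 on the log2 scale.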

Additional observations from a re-analysis of the deposited data

How the results depend on the processing

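In the tumoroid comparison all 10 members kept their direction and their call under all 19 alternatives, among them the replicate block (3387 genes called higher and 2022 lower, against 3400 and 1963) and each organoid group alone as the control. For 5 of them (Nkd1, Notum, Wif1, Apcdd1 and Lef1) the direction was fixed wherever the TPM filter was used, so theirs is a description. The other 5, Axin2, Sp5, Tcf7, Sox9 and Myc, reached the TPM of 1 in organoids too. Replicate numbers were not taken to pair tumoroids with organoids, since the deviations of same-numbered libraries had correlations from -0.07 to 0.196. With the deposited TPM, 4174 genes were called higher and 1143 lower, so that 78.5% of called genes were higher in place of 63.4%. The median log2 fold change of all tested genes moved from 0.16 to 0.52 with that scale, and every member stayed at or above 1.59, with Lef1 at 2.33 in place of 9.26, Nkd1 at 3.97 in place of 7.10, Wif1 at 2.72 in place of 6.05 and Notum at 6.54 in place of 8.79, on a scale with a pseudocount of 1 that lowers changes of genes near 0.

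The organoid comparison depended on the fit. Genes called higher and lower numbered 109 and 70, 68 and 36 by limma voom, 63 and 30 by DESeq2, and 0 and 0 without the replicate block, where 904 genes had an unadjusted p under 0.05 and the lowest adjusted p was 0.601. Both counts were also 0 with the deposited TPM, where 2690 genes had an unadjusted p under 0.05. With a pair of replicates left out they ranged from 1 to 169 and from 0 to 216. By adjusted p alone 1634 genes passed, 1048 with the newer quasi-likelihood form, 794 by DESeq2 and 581 by voom. The number of members that passed, 1 (Sp5), was 0 without the replicate block and with TPM and ranged from 0 to 1 with replicates left out. The number also changed by more than 1 on the log2 scale ranged from 0 to 1, being 1 without replicate 1. Of the 9 members that did not pass, Apcdd1, Sox9 and Myc changed sign when a replicate was left out: the log2 fold change ranged from -0.54 to 0.33 for Apcdd1, from -0.063 to 0.23 for Sox9 and from -0.27 to 0.019 for Myc. The fitted value of Wif1, which lies at the floor and is no measure of size, ranged from -4.33 to 0.0085. The cause was not tested. Depth limits Nkd1, Wif1, Notum and Lef1 in organoids.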
